A study of Mus musculus with 96 samples.

Results

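The mouse cell cycle genes described here were 51 named genes out of 50944 genes listed in every file. They were chosen by name, with earlier results of these data known. They comprised 6 genes of G1/S control, 15 genes of S phase and 30 genes of mitosis. All 51 were listed in all 96 libraries. Counts were filtered for low values within each cell type, and all 51 members passed in 3 cell types, whereas 50 passed in cardiomyocytes, where Cdc25c, the phosphatase that activates Cdk1, did not.

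Total RNA of 4 cell types was sequenced from hearts of male C57Bl/6J mice aged 12 to 14 weeks. Unoperated mice (Day 0) were set beside mice at Day 1, Day 3, Day 7, Day 14 and Day 28 after the left anterior descending coronary artery was tied off for good, which infarcts the anterior wall. No mutation or drug treatment was part of any group. Cardiomyocytes (CM) were spun down at low speed, endothelial cells (EC) were captured with beads against CD144, hematopoietic cells (HC) with beads against CD45, and fibroblasts (FB) were taken as the cells that adhered to a plate within 40 min. Each of the 24 groups had 4 libraries, and each library pooled RNA of 3 mice, or of 2 where a sample was missing. On each day the cell types were taken from shared mice, so that libraries of different cell types are not independent of each other. Since the study describes the replicates as biological and technical at once, a p-value here speaks for the spread among pools, part of which may be technical. The cells of each type were also prepared as a library batch of their own, so that cell type and batch cannot be told apart.

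A cell that divides first passes the G1/S transition, where cyclin D and cyclin E kinases release E2F transcription factors from the retinoblastoma protein. E2F then switches on the genes of S phase, which load the MCM helicase on DNA, open origins and supply deoxynucleotides. The genes of mitosis follow later, in G2 and M, under FOXM1 and the DREAM and B-MYB complexes, and build the spindle, the kinetochores and the cleavage furrow. Adult mouse cardiomyocytes are known to divide rarely, while fibroblasts, endothelial cells and infiltrating blood cells divide in the days after infarction.

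The estimated reads per library ran from 16214419 to 40395291 in HC, from 2664338 to 36545715 in FB, from 12445124 to 33868990 in EC and from 13503024 to 55758471 in CM. Ribosomal RNA took 9.83 to 32.2% of the reads in HC, 2.83 to 35.6% in FB, 11.5 to 28.4% in EC and 53.4 to 68.2% in CM. The marker genes of the labelled type were present in every group, with sums of at least 791 CPM for HC markers in HC, 746 CPM for FB markers in FB, 2845 CPM for EC markers in EC and 3108 CPM for CM markers in CM. CPM values are reads scaled to a common library total, which includes ribosomal RNA, and adjusted for composition within a cell type. CM markers also summed to 1429 to 2464 CPM in EC at Day 0 and to 1611 to 2633 CPM in HC at Day 0. Erythroid markers summed to 7270 to 12080 CPM in FB at Day 0 and to 840.5 to 3437 CPM in EC at Day 0. In FB at Day 7 they summed to 1434 to 3813 CPM, with 3 of 5 lower than at Day 0. There were 8 libraries known from earlier work on these files to stand apart from their groups. They were replicates 2 and 4 of Day 28 in HC, replicates 2 and 3 of Day 3 in FB, replicate 4 of Day 28 in FB, replicates 1 and 2 of Day 0 in EC and, also in EC, replicate 3 of Day 28. Counts that changed most without them are given both ways. Of the 8, replicates 2 and 3 of Day 3 in FB had 2664338 and 3508819 estimated reads, with 35.6 and 35.2% ribosomal RNA. Every other FB library had at least 18528788 reads. From its total RNA data the study removed 2 replicates of Day 3 in FB and 1 of Day 28 in HC as outliers, without numbering them in its text. All libraries were kept in the main fits here. In HC, the files of Day 1 and Day 7 listed transcripts and those of the other days listed genes, so that Day 1 and Day 7 were compared with Day 0 across kinds of file. In bulk RNA, fewer cells of a type and less RNA per cell cannot be told apart.

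Promoter sequence is shown first, because S phase and mitotic genes are known to be switched on through different promoter elements. Promoters from RefSeq (GRCm38.p6) were matched by symbol for 41 of the 51 members, and the 250 bases before the start were searched on both strands. The cell cycle homology region (CHR, searched as TTTGAA or TTCGAA), the element bound by DREAM and B-MYB complexes, was found in 12 of 24 mitotic promoters (50%), in 3 of 13 S phase promoters (23.1%) and in 17.4% of all 27025 promoters. The E2F core (searched as TTCCCGC, as TTCGCGC, also as TTGCCGC and finally as TTGGCGC) was found in 4 of 24 mitotic promoters (16.7%), in 6 of 13 S phase promoters (46.2%) and in 7.97% of all. The CCAAT box, bound by NF-Y, stood in 20 of 24 mitotic promoters (83.3%), in 9 of 13 S phase promoters (69.2%) and in 34.5% of all. CHR and CCAAT occurred together in 11 of 24 mitotic promoters (45.8%), against 6.21% of all. Among other genes of the same phases, the CHR was found in 3 of 19 mitotic promoters (15.8%) and the E2F core in 7 of 12 S phase promoters (58.3%). A match is a description of the letters and not a site shown to be bound.

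The last 120 bases before the start are printed for 6 members with these elements in capitals. Top2a, Kif11 and Ect2 are mitotic, Mcm6 and Rrm1 belong to S phase, and E2f8 to G1/S control. TTCAAA and TTCGAA are the CHR, ATTGG is CCAAT on the other strand, and in E2f8 a run of capitals holds a CCAAT box that overlaps an E2F core. In Mcm6, TTGGCGCGAA holds overlapping E2F cores on both strands.
Top2a (chr11:99024190-99024309, minus strand): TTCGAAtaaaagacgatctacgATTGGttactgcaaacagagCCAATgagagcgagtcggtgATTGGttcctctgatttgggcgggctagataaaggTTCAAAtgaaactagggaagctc
Kif11 (chr19:37376262-37376381, plus strand): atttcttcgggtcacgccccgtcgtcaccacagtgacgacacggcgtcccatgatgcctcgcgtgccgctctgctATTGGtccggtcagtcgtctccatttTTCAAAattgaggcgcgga
Ect2 (chr3:27153879-27153998, minus strand): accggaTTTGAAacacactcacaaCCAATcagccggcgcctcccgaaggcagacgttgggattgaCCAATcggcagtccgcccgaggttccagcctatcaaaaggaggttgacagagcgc
Mcm6 (chr1:128359706-128359825, minus strand): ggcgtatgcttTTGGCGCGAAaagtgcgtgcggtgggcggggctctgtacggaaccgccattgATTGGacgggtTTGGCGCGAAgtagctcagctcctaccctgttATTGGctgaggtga
Rrm1 (chr7:102441575-102441694, plus strand): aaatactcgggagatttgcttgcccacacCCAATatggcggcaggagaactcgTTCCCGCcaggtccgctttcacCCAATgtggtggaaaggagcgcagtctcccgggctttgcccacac
E2f8 (chr7:48881597-48881716, minus strand): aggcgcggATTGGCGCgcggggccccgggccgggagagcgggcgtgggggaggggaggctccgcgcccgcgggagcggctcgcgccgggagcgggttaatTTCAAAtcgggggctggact

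Before infarction the summed level of the members differed widely between the cell preparations. These CPM values were scaled within each cell type, on totals that include ribosomal RNA, whose share was largest in CM. Such differences in level also coincide with library batch. The 30 mitotic members summed to 33.7 to 46.4 CPM in CM at Day 0, to 102 to 116 CPM in FB, to 215 to 331 CPM in EC and to 543 to 716 CPM in HC. The 15 S phase members summed to 20.7 to 23.1 CPM in CM, to 235 to 265 CPM in EC, to 264 to 279 CPM in FB and to 345 to 384 CPM in HC. The cell types did not overlap in the mitotic sums, while in the S phase sums EC and FB met at their edges. In CM, 1 gene held a large part of the reads in the mitotic sum. Ncapd2, a condensin subunit, had 11.3 to 27.7 CPM at Day 0, and the other 29 members together had 18.7 to 22.4 CPM.

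**Figure D1:**
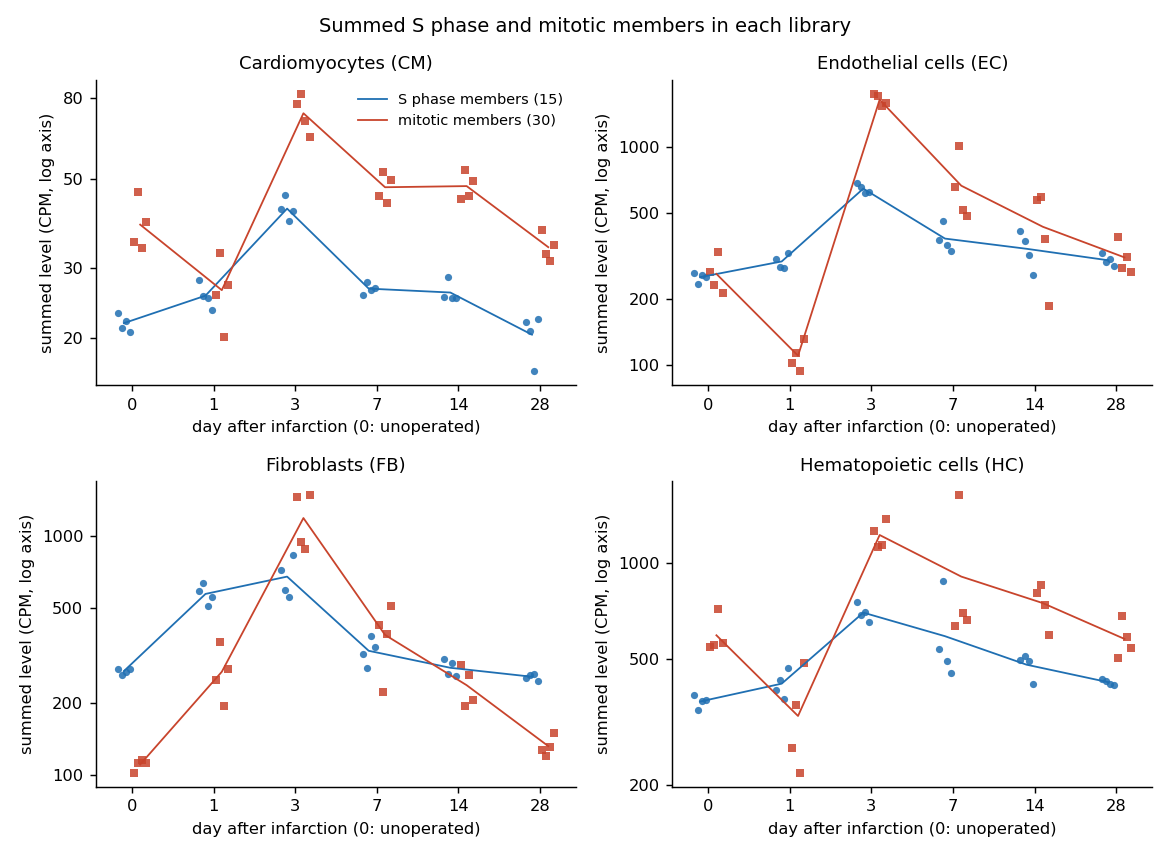
Summed CPM (log axis) of the 15 S phase members (blue) and of the 30 mitotic members (red) in each of the 96 libraries, by day after infarction and cell type, with 1 point for each library and lines through the group means. The mitotic sum fell below its Day 0 values at Day 1 in every EC library and exceeded them in every FB library, and it was above Day 0 in every cell type at Day 3.

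At Day 1 the members moved in different directions in the cell types. In FB 44 of 51 members were higher than at Day 0 (edgeR quasi-likelihood test, Benjamini-Hochberg adjusted over all genes tested), against 11.6% of all genes, and 1 was lower, against 6.36%. In EC 22 members were lower (9.11% of all genes) and 5 were higher (9.85%), and in HC 18 were lower (24%) and 3 were higher (18%). In CM 1 member was higher (6.81%) and 1 was lower (4.58%). The share of members called lower in HC was nearer to that of all genes than in EC, and the calls were not spread evenly over the phases.

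The mitotic members carried the lower calls. Of the 22 members lower in EC, 20 were mitotic, 1 was of S phase and 1 of G1/S control. Of the 18 lower in HC, 17 were mitotic and 1 was of G1/S control. The S phase members had a median log2 change of 0.31 in EC and 0.27 in HC, and the mitotic members one of -1.20 in EC and -0.90 in HC. In FB both phases were higher, with 13 of 15 S phase and 26 of 30 mitotic members called and median log2 changes of 1.95 and 1.79. The median over all genes tested lay between -0.11 and 0.05 in the comparisons with Day 0.

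Ccna2, the cyclin that drives S phase and entry into mitosis, shows the split. In EC it had 15.7, 13.2, 9.41 and 4.73 CPM at Day 0 and 1.26, 2.23, 2.15 and 1.93 CPM at Day 1. Every EC library of Day 1 lay below every library of Day 0, a log2 change of -2.49 ± 0.41 (SE, edgeR adjusted p = 0.000303). In FB it had 1.61, 2.02, 2.35 and 2.13 CPM at Day 0 and 11.4, 18.5, 9.07 and 11.7 CPM at Day 1, with no overlap (2.64 ± 0.33, edgeR adjusted p = 8.51e-06). In HC it had 13.1, 12.4, 16.1 and 14.0 CPM at Day 0 and 3.60, 7.17, 2.41 and 14.2 CPM at Day 1. The HC groups overlapped, since replicate 4 of Day 1 stayed among the Day 0 values, and the change was -1.01 ± 0.40 (edgeR adjusted p = 0.0477). In CM it was near the limit of counting, at 0.0479 to 0.166 CPM at Day 0 and 0.105 to 0.227 CPM at Day 1.

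Cenpf, a kinetochore protein that builds up in G2, fell in both EC and HC. It had 31.7, 38.1, 38.9 and 25.6 CPM in EC at Day 0 and 5.24, 9.41, 6.79 and 6.97 CPM at Day 1 (log2 change -2.24 ± 0.29, edgeR adjusted p = 1.78e-05). In HC it had 31.8, 43.2, 47.7 and 33.0 CPM at Day 0 and 4.55, 8.96, 4.46 and 14.1 CPM at Day 1 (-2.27 ± 0.35, edgeR adjusted p = 2.17e-05). In neither cell type did the groups overlap. Mki67, the coat protein of mitotic chromosomes used as a proliferation marker, had 29.5 to 54.0 CPM in EC at Day 0 and 4.53 to 10.6 CPM at Day 1. In HC it went from 107 to 142 CPM at Day 0 to 27.7 to 83.7 CPM at Day 1, and both changes passed the test (-2.29 ± 0.40 and -1.14 ± 0.30, edgeR adjusted p = 0.000617 and 0.00393). Anln, the scaffold of the cleavage furrow, was lower as well, by -0.97 ± 0.32 in EC and -1.37 ± 0.21 in HC on the log2 scale.

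The few S phase members called at Day 1 in EC and HC were mostly higher. They were Cdt1 and Mcm4, which load and form the replicative helicase, in both cell types, and Mcm6, Pcna and Tyms in EC alone by this test. Mcm6 had 22.7, 20.3, 24.7 and 25.3 CPM in EC at Day 0 and 34.1, 33.9, 29.6 and 38.4 CPM at Day 1, without overlap (log2 change 0.55 ± 0.14, edgeR adjusted p = 0.0102). The S phase member lower in EC was Tk1, the thymidine kinase (-1.88 ± 0.54, edgeR adjusted p = 0.0195). It had 9.24, 7.29, 2.31 and 1.38 CPM at Day 0 and 0.856, 1.38, 1.47 and 1.69 CPM at Day 1. The groups overlapped, and the high values of Day 0 were in replicates 1 and 2, the libraries set apart. In CM the member called higher was Mcm6 too, with 0.489, 0.474, 0.624 and 0.599 CPM at Day 0 and 1.14, 1.88, 1.05 and 1.50 CPM at Day 1 (1.34 ± 0.24, edgeR adjusted p = 0.000453). All 4 CM libraries of Day 1 were above all 4 of Day 0. The G1/S members called were E2f8, an E2F family repressor, lower in EC (-1.48 ± 0.37), Ccnd1, cyclin D1, lower in HC (-0.79 ± 0.20), E2f1, an activating E2F, higher in HC (0.61 ± 0.14), and Ccne2, a cyclin E, lower in CM (-0.71).

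In FB the S phase members with the greatest changes at Day 1 were Tk1 (log2 change 3.05 ± 0.71) and the helicase subunit Mcm5. Mcm5 had 3.96, 4.09, 3.25 and 3.49 CPM at Day 0 and 32.1, 36.2, 25.3 and 25.2 CPM at Day 1 (log2 change 3.01 ± 0.23, edgeR adjusted p = 2.33e-08). Cdk1, the kinase of mitotic entry, had 0.385, 0.824, 0.752 and 0.906 CPM at Day 0 and 8.68, 13.3, 5.55 and 9.28 CPM at Day 1 (3.66 ± 0.39, edgeR adjusted p = 1.09e-06). For both genes the lowest library of Day 1 was several times the highest of Day 0. Aurkb, the kinase of the chromosomal passenger complex, had the highest change among the members in FB (4.31 ± 0.41). Ccnd1 was the member called lower (-0.73).

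These counts depended on a few libraries. Without EC Day 0 replicates 1 and 2, and the library of EC Day 28 set apart above, 12 members were lower in EC at Day 1 and 0 were higher (edgeR), with 4 higher at an unadjusted p under 0.05. In HC, 11 were lower at Day 1 without replicate 3 of Day 0, whose mitotic sum was 716 CPM against 543 to 559 CPM in the others, and 28 were lower without replicate 4 of Day 1. With limma on log2(TPM + 1) the counts were 5 lower in HC, 15 higher in FB and 0 lower in EC, where 4 were lower at an unadjusted p under 0.05.

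Other marker genes moved at Day 1 beside these members. In HC all 7 neutrophil markers were higher, with a summed level of 1887 to 3306 CPM against 144 to 284 CPM at Day 0, and so were 3 of 4 HC markers, at 1359 to 1574 CPM against 895 to 1081 CPM. Of 10 monocyte and macrophage markers in HC, 5 were higher and 3 were lower, with sums of 4186 to 4615 CPM against 3882 to 4273 CPM. Within that list Ccr2 went from 111 to 149 CPM to 644 to 784 CPM, and Timd4 from 56.1 to 66.6 CPM to 15.7 to 21.6 CPM. All 4 CM markers, all 4 EC markers, all 4 FB markers, all 6 mural cell markers and all 5 erythroid markers were lower in HC. In EC 3 of 6 mural cell markers were lower, with sums of 1556 to 2425 CPM against 2789 to 3391 CPM. Of 8 tested monocyte and macrophage markers in EC, 3 were higher and 1 was lower, with sums of 56.6 to 68.8 CPM against 32.7 to 42.2 CPM. Much of that sum was Lyve1, with 35.8 to 45.4 CPM at Day 1 against 17.1 to 21.6 CPM at Day 0. In EC 2 of 4 CM markers were lower, with sums of 920 to 1540 CPM against 1429 to 2464 CPM. Of the HC markers 0 of 3 tested were called in EC (edgeR; 1 at an unadjusted p under 0.05), with sums of 2.30 to 5.19 CPM against 2.79 to 3.58 CPM. In FB 5 of 6 mural cell markers were lower, and 0 of 3 HC markers tested were called (edgeR; 0 at an unadjusted p under 0.05). In CM both HC markers tested and 7 of 8 monocyte and macrophage markers were higher, the latter with sums of 4.93 to 12.5 CPM against 1.56 to 2.35 CPM. The part of these cells in the changes of the members was not tested.

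The differences between cell types at Day 1 were tested directly, as the change in a cell type minus the mean change in the other 3, in a fit over all 96 libraries and 22086 genes. In FB the change was greater for 42 of 51 members, against 5.08% of all genes. Of these, 28 were mitotic and 11 were of S phase. In EC it was smaller for 23 members (2.16% of all genes), 18 of them mitotic, and in HC for 17 members (12.8%), 13 of them mitotic. In CM it was smaller for 4 members (4.86%), which were Aurka, Mcm2, Ccne2 and Ncapd2. Without the 8 libraries the count for EC was 15, and the other counts were 5 in CM, 43 in FB and 18 in HC. The mean of the other cell types holds FB in the tests of EC and HC, so that the 4 tests are not independent of each other, and the cell types of a day shared mice. With the replicate number within a day as a block, the counts at Day 1 were 42 in FB, 23 in EC, 19 in HC and 4 in CM.

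At Day 3 most members were higher than at Day 0 in every cell type. The count was 44 of 50 tested in CM (16% of all genes higher), 49 of 51 in EC (23.2%), 48 of 51 in FB (25.8%) and 45 of 51 in HC (23.2%). The mitotic members had the larger median log2 changes, at 4.35 in FB, 3.65 in CM, 2.91 in EC and 1.36 in HC. Those of the S phase members were, in the same order, 2.50, 2.05, 1.60 and 1.24. In CM 6 of the 29 mitotic members tested had at most 3 reads in every Day 0 library, and with these set to a bound, from a floor of 3 reads in each Day 0 library, the CM median was 3.51. The counts were 44, 49, 50 and 45 with the 8 libraries left out where they applied, and the CM count was unchanged by that because none of the 8 is a CM library. By edgeR the gap between the phases was smallest in HC, at -0.11 (S phase minus mitotic). When means of log2(TPM + 1) were used, it turned to 0.04 in HC. On that scale, where the added 1 shrinks changes of genes with low TPM, the gaps in CM, EC and FB shrank as well. The gap in CM was the smallest.

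**Figure D2:**
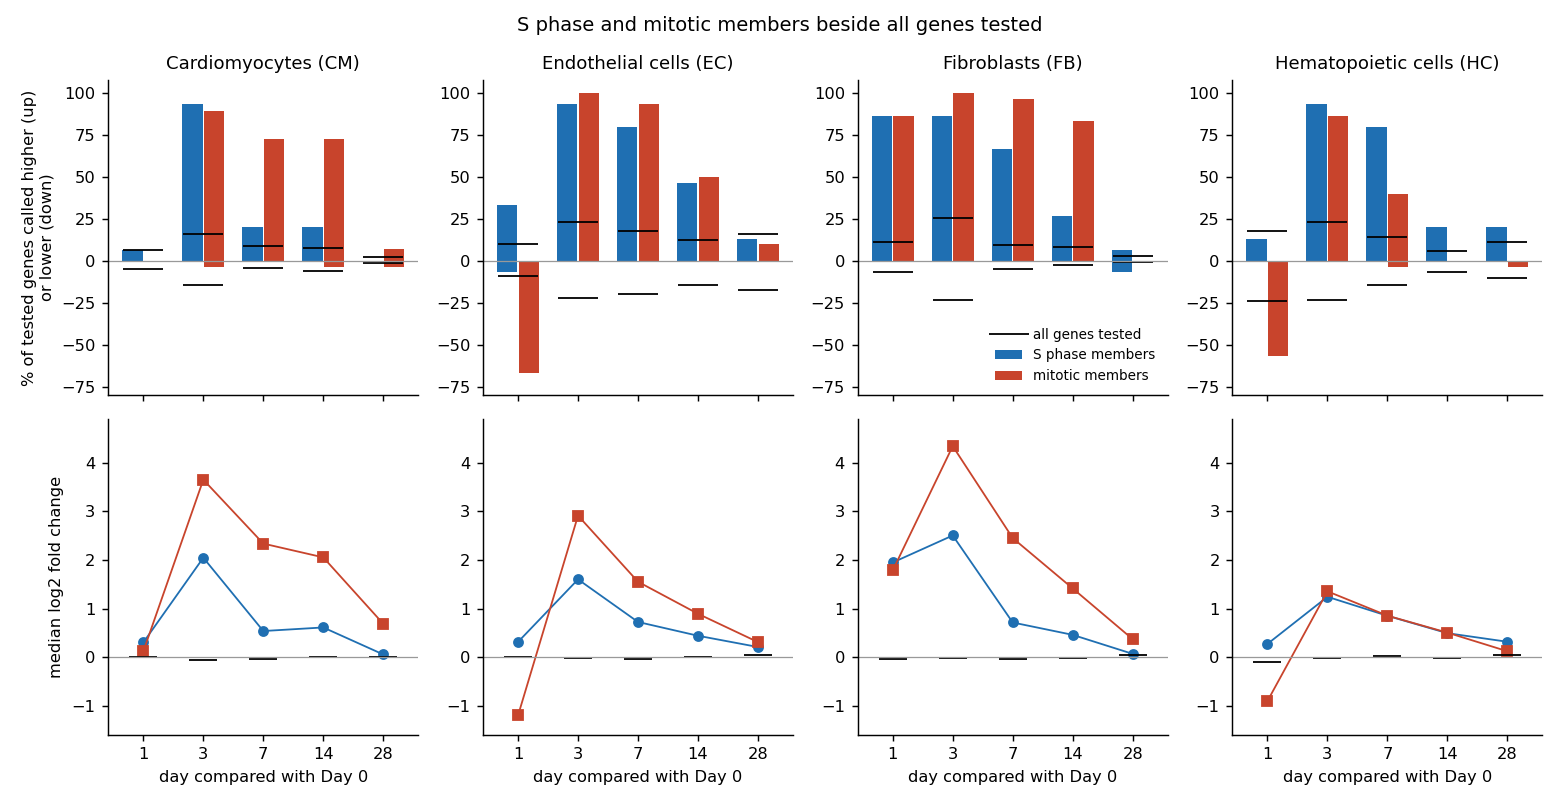
Top, percent of the tested S phase (blue) and mitotic (red) members called higher (bars up) or lower (bars down) than at Day 0 by the edgeR test, for each cell type and day, with black dashes for all genes tested. Bottom, their median log2 change, again with black dashes for all genes. At Day 1 the mitotic members were called lower in EC and HC and higher in FB, and at Day 3 they were called higher in all 4 cell types.

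Among the G1/S members at Day 3, 4 of 6 rose in CM and 5 of 6 in each of EC, FB and HC. Ccne1, cyclin E1, which activates Cdk2, had 0.546, 0.386, 0.284 and 0.0385 CPM in EC at Day 0 and 4.35, 5.95, 4.35 and 5.07 CPM at Day 3 (log2 change 3.99 ± 0.41, edgeR adjusted p = 1.49e-07). Every EC library of Day 3 was several times above every library of Day 0. In HC it rose by 2.28 ± 0.32, in CM by 1.39 ± 0.44 and in FB by 1.22 ± 0.23. In FB limma on log2(TPM + 1) gave -0.20 instead. The change in EC exceeded the mean of the other cell types by 2.39 ± 0.42, and that in FB was below it (-1.59 ± 0.38). E2f8 rose most among the G1/S members in FB. It had 0.245, 0.227, 0.180 and 0.187 CPM at Day 0 and 10.1, 4.73, 4.04 and 10.1 CPM at Day 3 (5.19 ± 0.46, edgeR adjusted p = 1.69e-08), and the libraries set apart, replicates 2 and 3, held the lower values. Ccnd1, the cyclin that responds to growth factors, was not called in EC (0.26 ± 0.30), FB (-0.14 ± 0.14) or HC (-0.10 ± 0.20) and rose in CM by 0.56.

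Of the 10 members that license and open origins, 9 rose in CM, EC and FB each and all 10 in HC. Mcm5 shows the range. It had 0.294, 0.426, 0.147 and 0.192 CPM in CM at Day 0 and 1.21, 1.45, 1.24 and 1.04 CPM at Day 3 (log2 change 2.18 ± 0.33, edgeR adjusted p = 1.83e-05). In EC it had 7.30, 4.63, 6.37 and 5.23 CPM at Day 0 and 32.8, 29.3, 32.8 and 28.3 CPM at Day 3 (2.39 ± 0.29, edgeR adjusted p = 1.24e-06). In none of the 4 cell types did its Day 3 libraries overlap with Day 0, and it rose by 3.39 ± 0.24 in FB and 1.46 ± 0.20 in HC. Mcm2, another subunit of the helicase, rose by 0.75 ± 0.22 in CM, where its groups overlapped (0.55 to 1.11 CPM at Day 0 and 1.06 to 1.53 CPM at Day 3). Cdc6, which brings the helicase to origins, rose by 2.82 ± 0.23 in FB, 2.22 ± 0.42 in CM, 2.05 ± 0.27 in EC and 1.37 ± 0.30 in HC.

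Of the 5 members that supply nucleotides or clamp the polymerase, all 5 rose in CM and EC, and 4 rose in FB and HC. Rrm2, the inducible subunit of ribonucleotide reductase, had 4.82, 3.09, 5.44 and 3.88 CPM in EC at Day 0 and 36.7, 34.7, 31.4 and 32.6 CPM at Day 3 (log2 change 2.97 ± 0.29, edgeR adjusted p = 6.91e-08). In CM it had 0.685, 0.474, 0.587 and 0.407 CPM at Day 0 and 2.28, 2.29, 2.30 and 1.96 CPM at Day 3 (2.05 ± 0.27, edgeR adjusted p = 2.91e-06). The groups were apart in both cell types. Rrm1, the subunit that is also kept outside S phase, changed less, by 1.04 ± 0.08 in EC, 1.00 ± 0.15 in FB, 0.53 ± 0.16 in HC and 0.47 ± 0.13 in CM. Tyms, thymidylate synthase, was the member of this group not called in FB (0.48 ± 0.24) and HC (-0.01 ± 0.21). In FB it had 23.2 to 29.7 CPM at Day 0 and 50.15, 23.65, 15.16 and 48.82 CPM at Day 3. The low values of Day 3 were in replicates 2 and 3, the libraries set apart, while replicates 1 and 4 lay above every library of Day 0.

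Mitotic cyclins, kinases and their regulators rose without exception among those tested, 8 of 8 in CM and 9 of 9 in each of EC, FB and HC. Cdk1 had 3.33, 2.32, 5.76 and 2.88 CPM in EC at Day 0 and 42.0, 42.3, 35.4 and 41.9 CPM at Day 3 (log2 change 3.50 ± 0.36, edgeR adjusted p = 2.00e-07). In FB at Day 3 it had 45.8, 46.6, 30.8 and 65.0 CPM (6.03 ± 0.42, edgeR adjusted p = 9.38e-10), and in HC it went from 6.44 to 9.27 CPM to 20.6 to 25.0 CPM (1.64 ± 0.28). The change in FB was the highest of any member there, and the 2 groups did not overlap in any of these cell types. Ccna2 rose in CM from 0.163, 0.166, 0.0734 and 0.0479 CPM to 2.96, 3.56, 2.66 and 2.71 CPM (4.68 ± 0.37, edgeR adjusted p = 1.61e-09). Of the mitotic members, 6 had at most 3 reads in every CM library of Day 0, so only levels are given. Plk1, a kinase of the whole mitotic passage, had 1 to 3 reads at Day 0 and 19 to 42 at Day 3. Aurkb had 0 to 3 and 19 to 33 reads, and Foxm1, the transcription factor of the G2 genes, 2 to 3 and 28 to 41.

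Kinetochore and checkpoint members and those of the anaphase-promoting complex (APC/C) rose in 6 of 8 cases in CM, 8 of 8 in EC and FB and 6 of 8 in HC. Bub1b, a kinase-like part of the spindle checkpoint, had 4.02, 3.69, 3.57 and 3.31 CPM in EC at Day 0 and 30.1, 25.6, 26.0 and 24.2 CPM at Day 3 (log2 change 2.86 ± 0.29, edgeR adjusted p = 1.24e-07). It rose by 3.07 ± 0.51 in CM, 4.33 ± 0.34 in FB and 1.22 ± 0.27 in HC. Cenpf was not called in CM (-0.08 ± 0.26) or HC (0.34 ± 0.33) and rose by 1.63 ± 0.27 in EC and 3.92 ± 0.39 in FB. Cenpa, the histone H3 variant of centromeres, was likewise not called in CM (0.02 ± 0.11) or HC (0.23 ± 0.13).

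All 7 spindle motors and microtubule bundlers rose in CM, EC and FB, and 6 of 7 in HC. Kif11, the motor that separates the spindle poles, had 0.163, 0.213, 0.404 and 0.431 CPM in CM at Day 0 and 2.62, 2.39, 2.00 and 1.53 CPM at Day 3 (log2 change 2.81 ± 0.39, edgeR adjusted p = 7.20e-06). Prc1, which bundles the midzone, rose by 4.38 ± 0.32 in CM, 4.35 ± 0.35 in FB, 2.82 ± 0.33 in EC and 1.22 ± 0.27 in HC. Kif23, a motor of the midzone, was the one not called in HC (-0.12 ± 0.17), at 41.0, 47.7, 47.3 and 42.2 CPM at Day 0 and 39.3, 37.3, 36.7 and 51.1 CPM at Day 3. Its HC values of Day 3 lay on both sides of those of Day 0.

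Among chromosome proteins, 3 of 4 rose in CM and HC and 4 of 4 in EC and FB. Top2a, the topoisomerase that untangles sister chromatids, had 0.424, 0.450, 0.367 and 0.575 CPM in CM at Day 0 and 7.59, 8.66, 7.03 and 6.16 CPM at Day 3 (log2 change 3.99 ± 0.24, edgeR adjusted p = 5.55e-11). In FB it had 4.66, 5.31, 6.38 and 5.43 CPM at Day 0 and 190, 56.8, 82.9 and 185 CPM at Day 3 (4.59 ± 0.39, edgeR adjusted p = 9.99e-09). All Day 3 libraries were above all of Day 0, and in FB the 2 lower ones were again replicates 2 and 3. Mki67 had 204, 45.3, 38.4 and 111 CPM in FB at Day 3, split in the same way. Both cytokinesis members, Anln and Ect2, an activator of RhoA at the furrow, rose in all 4 cell types, by 3.78 ± 0.33 and 3.51 ± 0.43 in CM and by 0.70 ± 0.20 and 0.97 ± 0.31 in HC.

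**Figure D3:**
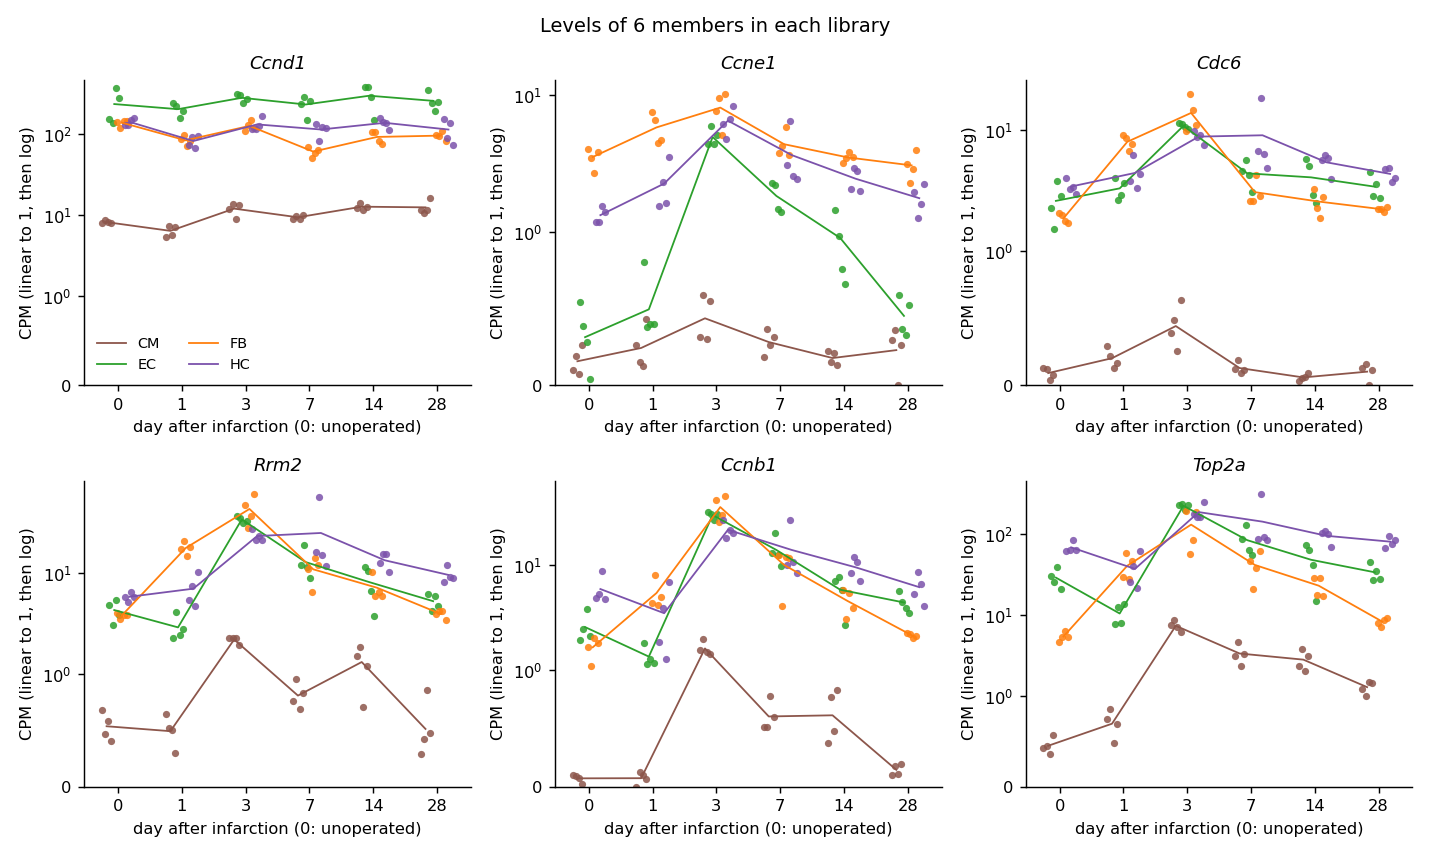
CPM (axis linear up to 1, logarithmic above) of Ccnd1, Ccne1, Cdc6, Rrm2, Ccnb1 and Top2a by day in the 4 cell types, with 1 point for each library and lines through the group means. Ccnb1, the cyclin of Cdk1 in mitosis, lies in EC at 1.94 to 3.81 CPM at Day 0, at 1.14 to 1.81 CPM at Day 1 and at 26.9 to 32.1 CPM at Day 3.

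The test of the difference at Day 3 gave FB a greater change than the mean of the other cell types for 34 of 51 members (12.1% of all genes), 23 of them mitotic, and a smaller one for 4 (21.4%). The 4 were Ccne1, Mcm4, Ccnd1 and Pcna. In HC the change was smaller for 36 members (16.3%), 29 of them mitotic and 5 of S phase. Cdk1 lay above the mean of the others by 2.62 ± 0.46 in FB and below it in HC (-2.87 ± 0.41). Kif23 and Anln were among the lowest in HC, at -3.17 and -2.90. In CM the change was greater for 10 members (14.3%) and smaller for 8 (6.93%), from -1.96 for Ncapd2 and -1.95 for Cenpf to 2.07 for Nusap1, a spindle bundler. In EC it was greater for 3 members (8.4%), Ccne1, Ncapd2 and Mcm4, and smaller for 1 (8.05%), Gins2. Without the 8 libraries CM had 6 greater and 11 smaller, FB 34 greater and 1 smaller and HC 39 smaller, while EC had 2 greater and Gins2 was no longer called.

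**Figure D4:**
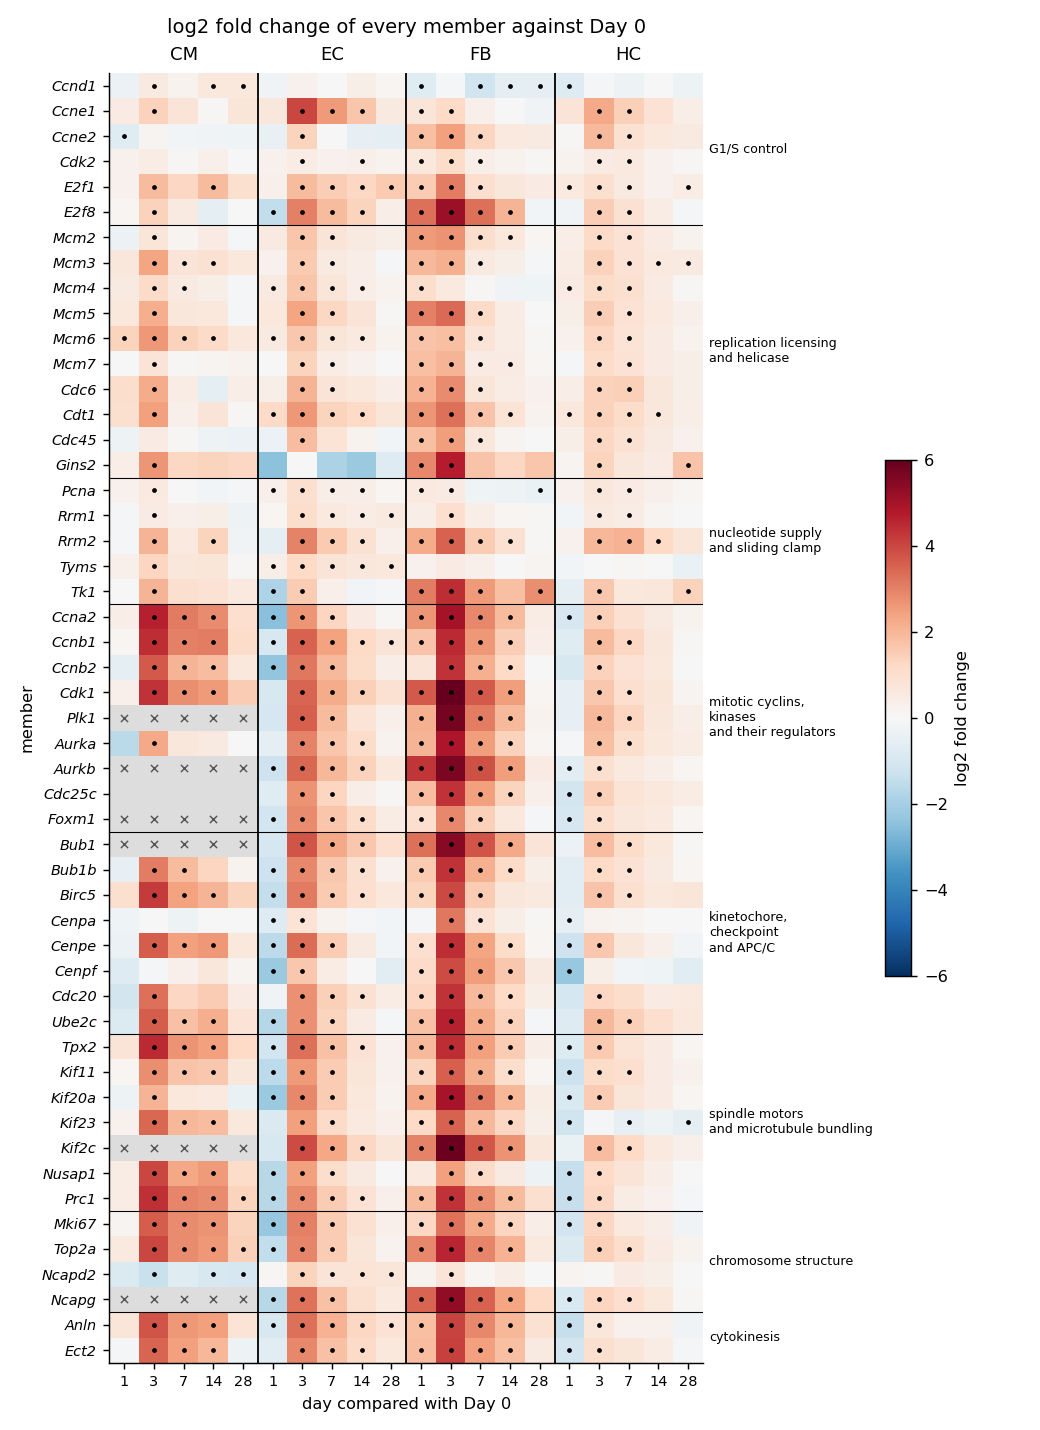
Log2 change against Day 0 of each of the 51 members, ordered by role, at each later day in each cell type (colour scale in log2 units). Values run up to 6.03 for Cdk1 in FB at Day 3, and apart from Ncapd2 the mitotic members of EC and HC are below 0 at Day 1. Dots mark members called by the edgeR test, grey cells members not tested, and crosses those with at most 3 reads in every Day 0 library, for which no fold is given.

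A few members depended on which transcript the reads were assigned to. Ncapd2 was the member called lower in CM at Day 3, with 15.2, 27.7, 11.3 and 17.3 CPM at Day 0 and 8.20, 8.32, 4.09 and 8.09 CPM at Day 3 (log2 change -1.32 ± 0.28, edgeR adjusted p = 0.00127). In CM at Day 0 a retained-intron transcript of 682 bases, Ncapd2-203, held 95.6% of its TPM (a level per transcript length, on the same total in every library), and its interval overlaps the small RNA gene Scarna10 at chr6:125186359-125186683 (GRCm38). Pcna, the sliding clamp, had 74.1% of its TPM in CM at Day 0 and 84.6% at Day 3 in a retained-intron transcript, Pcna-204. Its change in CM at Day 3 was 0.57 ± 0.12 over all transcripts and -0.39 over protein-coding transcripts alone (edgeR adjusted p = 0.203). Gins2, a subunit of the active helicase, was not called in EC at Day 3 (-0.00 ± 0.86). It had 14.7, 14.2, 1.54 and 0.500 CPM at Day 0, the first 2 in the libraries set apart, and 7.53, 10.5, 5.90 and 6.77 CPM at Day 3. In EC at Day 0, 90.9% of its TPM was in a retained-intron transcript, Gins2-203, against 85.5% in the coding Gins2-201 at Day 3. With protein-coding transcripts alone, 39 members rose in CM and 50 in EC at Day 3. The FB files, and those of HC at Day 0 and Day 3, list genes, so that their transcripts could not be looked at. Several members overlap genes on the opposite strand, among them Ccna2 with Exosc9 and Gins2 with Gse1. Whether counting used strand is not given in the sources used here, so reads of such pairs may not be told apart.

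The balance of the phases was put as the log2 ratio of summed TPM of S phase to mitotic members in each library. In EC it was 0.04 ± 0.15 (SD, n = 4) at Day 0, 0.98 ± 0.22 at Day 1 and -0.98 ± 0.11 at Day 3. In FB it went from 0.19 ± 0.17 to 0.73 ± 0.19 and -0.72 ± 0.08 over the same days. In HC it was -0.44 ± 0.21, 0.10 ± 0.10 and -0.32 ± 0.16. In all 3 cell types the ratio was highest at Day 1, and in EC and FB it was lowest at Day 3. In HC the values of Day 0 and Day 3 did not differ beyond their spread. In CM the ratio was -1.67 ± 0.61, -0.66 ± 0.47 and -0.60 ± 0.11. In every cell type the ratio depended on Pcna and Ncapd2 on some of these days. Without these 2 genes, which was tried after seeing the data, it was -1.27, -0.79 and -1.63 in CM, and -0.25, 1.24 and -1.56 in EC. In HC it was -1.04, 0.24 and -1.11. In FB it was then 1.20, 0.74 and -1.21, so that in FB the value of Day 1 was no longer above that of Day 0.

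**Figure D5:**
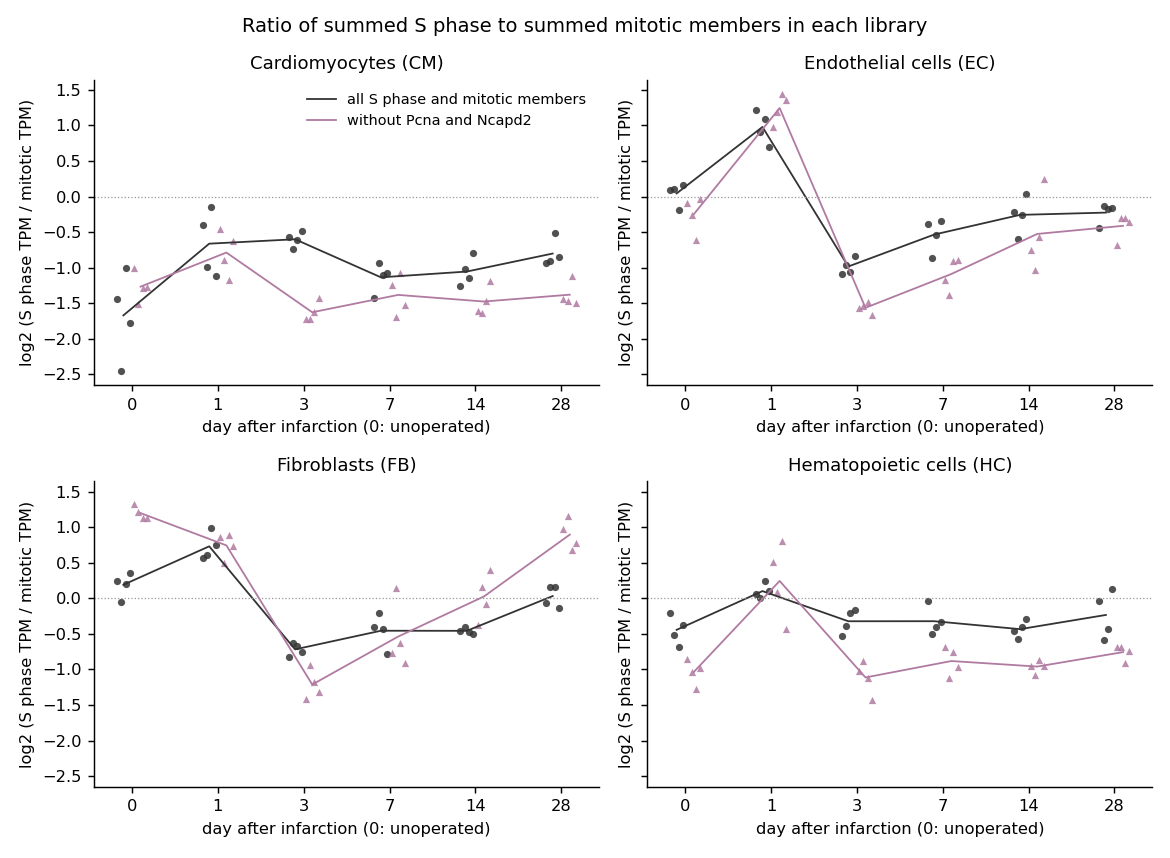
Log2 ratio of the summed TPM of the 15 S phase members to that of the 30 mitotic members in each library, by day and cell type, with all members and without Pcna and Ncapd2 (1 point for each library, lines through the group means). With all members the EC means are 0.04 at Day 0, 0.98 at Day 1 and -0.98 at Day 3.

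From Day 1 to Day 3 the mitotic members rose in every cell type. Higher at Day 3 than at Day 1 were 43 members in CM (9.01% of all genes), 48 in EC (13.2%), 40 in FB (15.4%) and 45 in HC (6.01%). The phases parted in FB, where all 30 mitotic but 6 of 15 S phase members were higher at Day 3 than at Day 1. Mcm2 had 31.8, 31.5, 23.3 and 26.3 CPM in FB at Day 1 and 28.0, 35.1, 26.8 and 33.6 CPM at Day 3. These groups overlapped (log2 difference 0.13 ± 0.20, edgeR adjusted p = 0.697), while both lay above its 4.05 to 5.42 CPM of Day 0. In HC, where 29 mitotic members were higher at Day 3 than at Day 1, the kinds of file differed. Between Day 1 and Day 7 of HC, which have the same kind of file, 36 members were higher at Day 7 (12.4% of all genes), 29 of them mitotic, with Kif11 at 2.27 ± 0.38.

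By Day 7 the members had come down in 3 cell types. Lower at Day 7 than at Day 3 were 31 members in CM (5.83% of all genes), 46 in EC (14.8%) and 49 in FB (19.5%), against 5 in HC (8.98%). Above Day 0 at Day 7 were 43 members in EC (18%), 43 in FB (9.83%), 29 in HC (14.1%) and 24 in CM (8.92%). In CM 21 of the 24 were mitotic and 3 were of S phase, with median log2 changes of 2.34 (2.01 with 6 members at their bound) and 0.54. In FB they were 29 mitotic, 10 S phase and 4 G1/S members, with medians of 2.45 for mitotic and 0.71 for S phase. With limma on log2(TPM + 1) and log2(TPM + 0.1) the counts above Day 0 were 1 and 8 in CM and 7 and 17 in FB. The count in HC turned on 1 library. Top2a had 84.6, 303, 90.1 and 82.8 CPM in HC at Day 7, and replicate 2 stood far above the rest, with a mitotic sum of 1636 CPM against 635 to 696 CPM. In the same library the T and NK cell markers summed to 174.8 CPM against 25.9 to 57.3 CPM in the other 3. Of these markers 4 of 5 were higher than at Day 0, and 1 of 5 without that library. Their part in the result was not tested. Without that library 13 members were above Day 0 in HC at Day 7, and 35 were lower than at Day 3. In FB Ccnd1 was below Day 0 at Day 7 (4.52% of all genes), with 70.8, 50.5, 59.1 and 64.7 CPM (log2 change -1.19 ± 0.14, edgeR adjusted p = 1.96e-06). In HC Kif23 was below Day 0 at Day 7, against 14.1% of all genes (-0.51 ± 0.17, edgeR adjusted p = 0.0318).

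At Day 14 the higher members were 26 in CM (8.04% of all genes), 26 in EC (12.8%), 30 in FB (8.25%) and 3 in HC (6.08%). Mitotic members made up 21 of them in CM, 15 in EC and 25 in FB. With limma on log2(TPM + 1) and log2(TPM + 0.1) the counts were 5 and 13 in CM, 43 and 47 in EC, and 0 and 0 in FB, where 1 and 8 members were higher at an unadjusted p under 0.05. From the libraries of the 2 days alone, edgeR called 11 in EC and 35 in HC. In CM the leading ones among those with a fold were Ccnb1 (log2 change 3.08 ± 0.42) and Ccna2 (2.84 ± 0.39). Cdk1 was higher by 2.51 ± 0.38 in FB and by 1.45 ± 0.35 in EC. The EC count rested on an uneven group, since Top2a had 71.9, 62.9, 41.2 and 14.6 CPM, and it was 16 without replicate 1 of Day 14, 17 without replicate 2 and 39 without replicate 4. In FB it was 18 without replicate 1 of Day 14. The EC count was 6 without the libraries set apart. In HC the 3 members were all of S phase, Rrm2 (1.20 ± 0.36), Cdt1 (0.67 ± 0.21) and Mcm3, a helicase subunit (0.59 ± 0.19). Leaving out any 1 of the 8 libraries moved this HC count, to between 0 and 6 (edgeR), and where it was 0, 7 to 12 members were higher at an unadjusted p under 0.05. Lower at Day 14 were Ncapd2 in CM (5.71% of all genes; -0.95 ± 0.28) and Ccnd1 in FB (2.62%; -0.59 ± 0.14).

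At Day 28 few members were called against Day 0 by edgeR, while limma called 36 and 46 higher in EC on log2(TPM + 1) and log2(TPM + 0.1). Higher by edgeR were 3 in CM (2.48%), which were Top2a (log2 change 1.45 ± 0.26), Prc1 (1.33 ± 0.37) and Ccnd1 (0.61 ± 0.14), and 6 in EC (16.3%), led by E2f1 (1.58 ± 0.24). In FB 1 was higher (2.88%), Tk1, with 0.803, 0.929, 0.855 and 13.7 CPM, where the high value was in replicate 4, set apart above. In HC 4 were higher (11.4%), among them Gins2, with 4.69, 13.6, 3.91 and 21.6 CPM, where the high values were in replicates 2 and 4, also set apart. Without these libraries 0 members were higher in FB and 0 in HC at Day 28 (edgeR), with 4 in FB and 0 in HC at an unadjusted p under 0.05. Lower at Day 28 were Ncapd2 in CM (1.09% of all genes), Ccnd1 and Pcna in FB (0.606%) and Kif23 in HC (10.4%). In CM, Top2a had 1.24, 1.00, 1.51 and 1.44 CPM, all above the 0.367 to 0.575 CPM of Day 0 and below the 6.16 to 8.66 CPM of Day 3.

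The CM libraries held RNA of other cells, whose markers were higher at Day 3 as the members were. The HC markers summed to 0.196 to 0.587 CPM in CM at Day 0, where Itgax had no read, and to 5.14 to 7.21 CPM at Day 3, and both of the 2 tested were higher. The monocyte and macrophage markers went from 1.56 to 2.35 CPM to 17.3 to 28.1 CPM, with 8 of 8 tested higher, and the FB markers from 1.94 to 4.11 CPM to 6.13 to 8.62 CPM, with 3 of 4 higher. At Day 1 the HC markers summed to 1.29 to 3.22 CPM, and 1 member was higher. At Day 7 the FB markers stood at 7.34 to 10.1 CPM, with 4 of 4 above Day 0, and 31 members were lower than at Day 3. The HC and the monocyte and macrophage markers had come down by then, to 1.99 to 3.28 CPM and 7.33 to 10.96 CPM, with 2 of 2 and 8 of 8 tested above Day 0. At Day 3 the EC markers were at 63.2 to 98.0 CPM and 66.4 to 87.2 CPM, with 0 of 4 called (edgeR; 0 at an unadjusted p under 0.05). The mitotic members without Ncapd2 gave 9.79 to 12.8 reads per read of the HC markers in CM at Day 3, against 0.687 to 0.960 in the HC libraries of Day 3. Per read of the FB markers they gave 8.56 to 9.27 in CM, against 1.00 to 1.37 in the FB libraries of Day 3. Per read of the EC markers they gave 0.707 to 0.993 in CM, against 0.396 to 0.538 in the EC libraries. In CM at Day 0 they gave 38.2 to 100.1 per read of the HC markers, which then summed to 0.196 to 0.587 CPM. That quotient was thus lower at Day 3 than at Day 0. Per read of the FB markers it was 4.77 to 11.2 at Day 0, which overlaps Day 3. Per read of the EC markers it was 0.200 to 0.344 at Day 0, below Day 3. The quotients of CM and of other cell types come from libraries of different batches. None of these quotients says which cells held the RNA. The part of other cells in the changes of the members in CM was not tested. Leaving out Ncapd2 was chosen after seeing the data.

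The marker lists also moved in the other cell types at Day 3. In FB all 4 FB markers were lower, with sums of 746 to 1237 CPM against 1864 to 1984 CPM, and the 4 CM markers were higher than their 22.5 to 44.0 CPM. That rise lay in replicates 2 and 3, the libraries set apart, with sums of 520.4 and 365 CPM, while replicates 1 and 4 had 12.2 and 18.6 CPM, below Day 0. Of 3 HC markers tested in FB 1 was higher, with sums of 11.5 and 10.6 CPM in replicates 2 and 3 and of 1.41 and 1.66 CPM in replicates 1 and 4. Without the libraries set apart, 3 of 4 FB markers were lower in FB, and 0 of 4 CM markers and 0 of 3 HC markers were called (edgeR), with 2 and 0 at an unadjusted p under 0.05. In EC all 6 mural cell markers were lower, with sums of 1025 to 1292 CPM, and 3 of 4 CM markers were lower, with sums of 654 to 1121 CPM. Of 8 tested monocyte and macrophage markers in EC, 4 were higher and 1 was lower, with sums of 51.2 to 77.0 CPM. Of these, Lyve1 had 28.5 to 50.8 CPM. In HC the 7 neutrophil markers were still higher, with sums of 484 to 1042 CPM, and 3 of 4 HC markers were higher, with sums of 1404 to 1535 CPM. Of 10 monocyte and macrophage markers in HC, 5 were higher and 3 were lower, with sums of 3992 to 4389 CPM. All 4 CM markers, all 4 EC markers, all 4 FB markers, all 6 mural cell markers and all 5 erythroid markers were lower in HC, with CM marker sums of 214.5 to 476.2 CPM against 1611 to 2633 CPM at Day 0. Their part in the changes of the members was not tested.

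Other genes of the same phases were taken from lists of 16 S phase and 20 mitotic genes, chosen with earlier results of these data known. Most of those tested were higher at Day 3, as the members were. The share of all genes tested that rose by then was 16% for CM, 25.8% for FB and 23.2% for both EC and HC. At Day 3 the other S phase genes were higher for 8 of 13 tested in CM, 16 of 16 in EC, 15 of 16 in FB and 14 of 16 in HC. The other mitotic genes were higher for 16 of 18 tested in CM, 20 of 20 in EC, 19 of 20 in FB and 19 of 20 in HC. Uhrf1, which keeps DNA methylation through replication, changed by 3.20 in CM, 3.37 in EC and 5.37 in FB on the log2 scale, and Cep55, a protein of the midbody, by 4.17, 3.60 and 5.11. At Day 1 the other mitotic genes were lower for 9 of 20 in EC (9.11% of all genes) and 13 of 20 in HC (24%). They were higher for 18 of 20 in FB (11.6%). The other S phase genes were higher for 15 of 16 in FB at Day 1 (11.6%). In EC and in HC 2 of 16 each were higher (9.85% and 18% of all genes), and 1 was lower in HC (24%).

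The inhibitors of cyclin-dependent kinases and the retinoblastoma family held both higher and lower genes at Day 3. Of those tested, 2 were higher and 1 lower of 8 in CM, 4 and 3 of 10 in EC, 4 and 5 of 10 in FB, and 3 and 1 of 10 in HC. Of all genes tested, 23.3% were lower in FB, 23.1% in HC, 22.3% in EC and 14.6% in CM, beside the shares higher given above. Cdkn1c, the inhibitor p57, had 132, 114, 129 and 94.4 CPM in EC at Day 0 and 20.5, 41.7, 29.2 and 34.3 CPM at Day 3, without overlap (log2 change -1.90), and it was lower in HC (-2.33) and FB (-0.63) as well. Cdkn1a, the p53 target p21, had 103, 94.3, 112 and 112 CPM in HC at Day 0, 287, 201, 205 and 340 CPM at Day 1 and 162, 171, 209 and 389 CPM at Day 3. It was called higher at both days in HC (1.30 and 1.15) and in CM (1.16 and 0.96), and lower in FB at Day 3 (-1.05). Rbl1, the E2F-regulated relative of the retinoblastoma protein, was higher at Day 3 in CM (1.40), EC (0.91), FB (1.51) and HC (0.49). Of the other D cyclins and their kinases, Cdk4 was higher at Day 3 in EC (0.76), FB (1.86) and HC (1.11). Ccnd2, cyclin D2, was lower in EC (-0.69) and HC (-0.76) and higher in FB (0.78).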

How the data were processed

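Total RNA was sequenced from 96 libraries (4 cell types, 6 days, 4 pools each). Per the labels and the methods of the study, adapters were removed by the authors with Trim Galore before STAR 2.28 (genome mm10) and Salmon were run. The deposited estimated counts (Salmon's expected counts) and TPM values, on a fixed total in each library, were made by the authors in this way. In 56 files the 137734 entries are transcripts and in 40 files the 51398 entries are genes. They were summed to genes with GENCODE M21, and 22 genes whose length set the kinds of file apart by over 1.1 fold were left out of HC, no member among them. Groups and replicate numbers were taken from the labels.

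Estimated counts were rounded and tested with the quasi-likelihood test of edgeR 4.0.16 (R 4.3.3; TMM scaling, genes of low count filtered, robust fit) on the 24 libraries of each cell type, and over all 96 libraries for differences between cell types. A gene was called at a Benjamini-Hochberg adjusted p under 0.05 over all genes tested. CPM values were scaled by TMM within a cell type. No fold was given where every Day 0 library had at most 3 reads. Alternatives were relative log expression scaling, no filter, rRNA left out, a replicate block, DESeq2 1.42.0, limma 3.58.1 on log2(TPM + 1) and log2(TPM + 0.1), the 2 days alone, leaving out each library, and leaving out 8 libraries. The scripts were tested on simulated data. Depth sets the precision of low members, above all in CM.

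The members and lists were chosen with earlier results of these data known. Members described with values were picked as representatives of each role, with the extremes of each phase, the members called against the rest, and any that 1 library decided, the last 2 kinds after their values were seen.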

Additional observations from a re-analysis of the deposited data

Results flagged for a closer look

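In 4 groups of 4 libraries, 1 library stood far from the other 3 by Dixon's test, which chance alone does for about 1 in 20 groups. As 3 quantities were tested in 24 groups each, 72 tests in all, about 3.6 would be expected by chance. The summed CPM of the S phase members was 28.4 in CM Day 14 replicate 2 against 25.1 to 25.3 in the others. The summed CPM of the mitotic members was 716 in HC Day 0 replicate 3 against 543.2 to 559.2, and 1636 in HC Day 7 replicate 2 against 635.3 to 696.1. The log2 ratio of summed TPM of S phase to mitotic members was -0.44 in EC Day 28 replicate 1 against -0.17 to -0.13.

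The change against Day 0 differed between cell types for many members by the test of the difference itself. At Day 1 it was smaller than the mean of the other 3 cell types for 4 members in CM, 23 in EC and 17 in HC, and greater for 42 in FB. At Day 3 it was greater for 10 and smaller for 8 in CM, greater for 3 and smaller for 1 in EC, greater for 34 and smaller for 4 in FB, and smaller for 36 in HC. Each change was taken against Day 0 of the same cell type, so a batch shift in level shared by all its days drops out. An effect of library batch on the changes themselves cannot be told apart from cell type.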

How the results depend on the processing

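Of the counts of members and the differences of phase medians, 468 values under an alternative stayed within 1.5 times the reported count or within their spread, 120 moved further and 1 changed sign. For single members, 2447 values kept their direction and side of the threshold, 129 lost the call, 28 gained one and 5 changed sign. The cause was not tested. At Day 3 the counts of higher members stayed within 1.5 times in all 4 cell types under every alternative.

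Counts of members higher than at Day 0 moved most with limma, given for log2(TPM + 1) and then log2(TPM + 0.1). At Day 1 they were 0 and 0 in CM, 15 and 17 in FB, 0 and 0 in HC, and 1 in EC with the larger pseudocount. At Day 7 they were 1 and 8 in CM and 7 and 17 in FB. At Day 14 they were 5 and 13 in CM, 43 and 47 in EC, 0 and 0 in FB and 0 and 1 in HC. At Day 28 they were 36 and 46 in EC and 0 and 0 in each of CM, FB and HC. Members lower at Day 1 were 0 and 5 in EC, and 5 in HC with the larger pseudocount. Between Day 1 and Day 3, 18 and 17 rose in FB, and between Day 3 and Day 7, 13 and 6 fell in EC, 16 and 13 in FB and 0 and 0 in HC. Where limma gave 0, between 0 and 21 members had an unadjusted p under 0.05.

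With only the libraries of the 2 days compared, the higher members were 15 (Day 7) and 1 (Day 28) in CM, 3 (Day 1) and 11 (Day 14) in EC, 3 (Day 28) in FB, and 11 (Day 1), 35 (Day 14) and 1 (Day 28) in HC, and 2 fell in HC from Day 3 to Day 7. Without the filter they were 3 in EC at Day 1, 0 in FB at Day 28 (6 at an unadjusted p under 0.05), and 1 and 2 in HC at Day 14 and Day 28. DESeq2 gave 2 in FB at Day 28, 5 in HC at Day 1 and at Day 14, and 9 that fell in HC from Day 3 to Day 7. Relative log expression scaling gave 5 in HC at Day 1. With protein-coding transcripts only, an alternative chosen after seeing the data, EC had 3 at Day 1 and 10 at Day 28. Leaving out rRNA moved no count by over 1.5 times.

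Without the 8 libraries that stand apart, EC had 0 higher (4 at an unadjusted p under 0.05) and 12 lower at Day 1 and 6 higher at Day 14, FB and HC had 0 higher at Day 28, and 9 fell in HC from Day 3 to Day 7. In the tests between cell types, 15 members were smaller in EC at Day 1, and at Day 3 6 were greater in CM, 0 smaller in EC and 1 smaller in FB.

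Leaving out 1 library at a time gave 1 to 2 higher members in CM at Day 1 and 1 to 4 at Day 28, 2 to 5 in EC at Day 1 and 16 to 39 at Day 14, 18 to 30 in FB at Day 14 and 0 to 1 at Day 28, and in HC 1 to 4 at Day 1, 13 to 33 at Day 7, 0 to 6 at Day 14 and 2 to 4 at Day 28. In HC 11 to 28 were lower at Day 1, and 0 to 35 fell from Day 3 to Day 7. For the larger counts the libraries that moved them by over 1.5 times are named beside the results above. Among the small ones, CM Day 1 moved without replicates 1 or 4 of Day 1, CM Day 28 without replicate 4 of Day 0 or Day 28, EC Day 1 without replicates 1 or 2 of Day 0 or 1 or 4 of Day 1, and FB Day 28 without replicate 4 of Day 28 or any Day 0 library. HC Day 1 moved without replicate 4 of Day 0 or 2 or 4 of Day 1, HC Day 14 without any of its 8 libraries, and HC Day 28 without replicates 2, 3 or 4 of Day 0 or 4 of Day 28. From Day 3 to Day 7 the HC count was 0 without replicates 1, 3 or 4 of Day 7 (8 to 10 at an unadjusted p under 0.05) and 1 to 2 without replicates 1, 3 or 4 of Day 3.

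Replicate numbers recur in all groups. The cell types of a day shared mice, but the sources used here do not say that a number marks the same mice in each, and the correlations gave no pairing by number. All 4 correlations of same-numbered libraries exceeded 0.1 in 2 of 20 pairs of days (r from -0.54 to 0.57) and in 0 of 36 pairs of cell types (r from -0.59 to 0.59), and in 0 of these pairs did every library correlate best with its own number. With a replicate block the higher members were 3 in EC at Day 1, 0 in FB at Day 28 (6 at an unadjusted p under 0.05) and 5 in HC at Day 14, and the other counts, those between cell types among them, moved by at most 1.5 times.

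The difference of the phase medians (S phase minus mitotic) moved on log2(TPM + 1). It was 0.46 in EC, 0.63 in FB and 0.59 in HC at Day 1, against 1.51, 0.16 and 1.18, and -0.0078 in CM, -0.21 in EC and -0.75 in FB at Day 3, against -1.61, -1.31 and -1.84. In HC at Day 3 it turned from -0.11 to 0.041. With G1/S members counted as S phase it was -2.29 in CM at Day 3, and without the 8 libraries -2.15 in FB. For single members at Day 3, limma turned Ccne1 (-0.20 and -0.54) and Pcna (-0.80 and -0.84) in FB below 0, and protein-coding transcripts turned Pcna in CM to -0.39. Low members of CM, at a few reads at Day 0, are limited by depth.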
